A study of Mus musculus with 20 samples.

Results

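B cells enriched from normal mouse spleen were profiled by sequencing of poly-adenylated RNA, and this account describes their transcriptome gene by gene. The members were the 4 samples labelled as normal spleen, out of 20 samples in the series; lymphoma samples make up the rest and are not compared here. All 4 came from the C57BL/6 strain background, carried no engineered allele or treatment that the labels record, and were taken straight from the mouse without culture. The labels give B220-positive sorted cells as the cell type, and the protocol, worded for tumours, describes magnetic enrichment with beads against CD45R (B220), the long form of the CD45 surface phosphatase that B cells carry. B220 is also found on plasmacytoid dendritic cells and some activated lymphocytes, and bead enrichment leaves a share of other cells. The age and number of the mice are not given in the sources used here, and nothing says that the 4 samples came from separate animals, so the spread given below may be technical in part.

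Mature B cells of the spleen wait for antigen. They carry a membrane immunoglobulin, IgM and IgD, held by the signalling pair Cd79a and Cd79b, whose cytoplasmic tails recruit Src-family kinases and Syk once antigen binds. Most are follicular B cells, which circulate through the follicles by way of the chemokine receptor Cxcr5 and leave through S1pr1; a smaller population sits in the marginal zone at the border of the white pulp, depends on Notch2 and carries much of the complement receptor Cr2. Both are resting cells whose identity is kept by Pax5 and Ebf1 and whose survival depends on the cytokine BAFF through the receptor Tnfrsf13c.

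The samples held 43.0 to 52.9 M gene counts (M for 1e6 reads), which were 52.1 to 57.0% of the reads listed. Levels are CPM, that is counts per 1e6 of the TMM-scaled library, and 3 counts, taken as the floor, correspond to 0.0572 to 0.0693 CPM. Different genes are compared only per kilobase of exon (RPKM), given as the mean ± SD over the 4 samples (n = 4). A gene was called expressed at a mean of at least 1 CPM. By that rule 13576 of 37620 genes were expressed, 11536 of them protein-coding, and 12733 genes reached 1 CPM in every replicate. At least 10 CPM was reached by 9460 genes, 100 CPM by 2423 and 1000 CPM by 74. The median expressed gene stood at 26.1 CPM.

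Replicate 1 stood apart from the other 3 in a way that touches many values below. It held 0.758% of its gene counts in genes of the mitochondrial genome against 5.03 to 6.46% in the others, and its short transcripts were lower. Across the expressed genes the Spearman correlation was 0.966 to 0.975 for the 3 pairs that include replicate 1 and 0.984 to 0.987 for the 3 pairs that do not. The share of genes within 1.5-fold was 73.1 to 77.7% in the first kind of pair and 89.7 to 91% in the second. The common biological coefficient of variation was 0.26 over the 4 samples and 0.20 without replicate 1. The labels place replicate 1 on a sequencer named han in run 96, replicate 2 on leia in run 81, replicate 3 on han in run 88 and replicate 4 on luke in run 75, so each sample has its own run and run cannot be told apart from sample. A gene is said below to lie 2-fold apart in a sample when it was at least 2-fold above or below the median of the other 3, with at least 5 CPM on the higher side. By that rule 0.335% of genes lay above and 6.2% below in replicate 1, 1.9% and 0.0179% in replicate 2, 0.462% and 0.48% in replicate 3, and 0.95% and 0.28% in replicate 4. With a single group there was no test between conditions, and every difference below is a measured difference between samples with no p-value.

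The markers of B cells were present in every sample. Cd79a, a signalling chain of the antigen receptor, stood at 850.3, 1089, 1277 and 1105 CPM in replicates 1 to 4. Ms4a1, which encodes CD20, stood at 1128, 947, 1104 and 789 CPM. Cr2, the complement receptor CD21, stood at 636, 519.9, 721 and 533 CPM. All 3 genes were abundant in each sample, with replicate 1 lowest for Cd79a and highest for Ms4a1. Ptprc, the gene for the CD45 protein that the beads bind in its B220 form, stood at 1840.2, 1566, 1419 and 1608 CPM, and a gene-level count does not separate that form from the others. Genes of precursor cells ranged from the floor upwards. Igll1 and Vpreb2, surrogate light chain genes of pro-B cells, had no more than 0.157 and 0.0811 CPM in any sample, and the recombinase gene Rag2 no more than 0.0763 CPM, all near the floor, while its partner Rag1 stood at 0.600 to 3.07 CPM. Of 12 pro-B and pre-B genes, 8 reached 1 CPM, the highest of them Il7r and Lef1, which T cells also express.

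**Figure D1:**
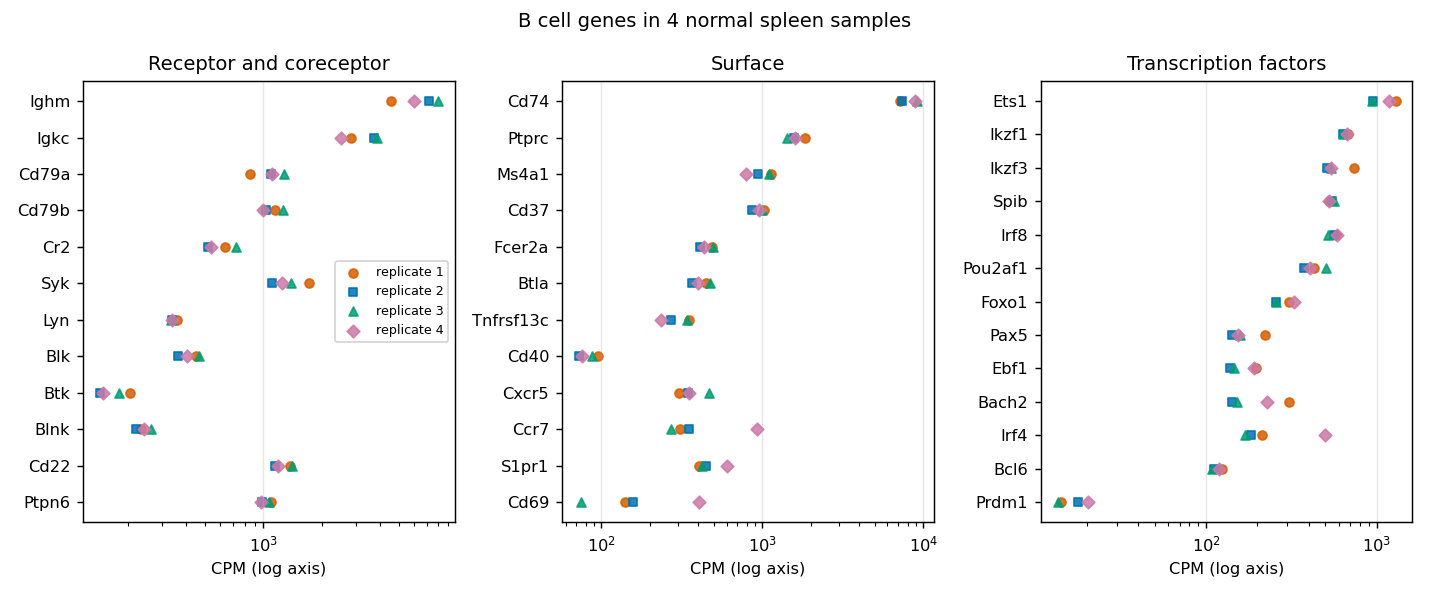
Levels of B cell genes in each of the 4 normal spleen samples, in CPM on a log axis, with a symbol for each replicate and panels for the antigen receptor and coreceptor, other surface proteins and transcription factors. Cd74 and Ighm lie furthest to the right and Prdm1 furthest to the left, and replicate 4 stands to the right of the others for Ccr7, Cd69 and Irf4.

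Apart from the immunoglobulin genes, given in the next paragraph, many of the most abundant messages belonged to antigen presentation, translation and the mitochondrial genome. Among the 30 protein-coding genes of highest RPKM, immunoglobulin segments left aside, 12 were mitochondrially encoded. Cd74, the invariant chain that escorts class II molecules to the endosome, was the highest nuclear gene of these 30 at 4842 ± 595 RPKM. Tmsb4x, which binds actin monomers, followed at 2721 ± 235 RPKM and the elongation factor gene Eef1a1 at 2532 ± 290.3 RPKM. The list also held B2m, the light chain of class I molecules, at 1728 ± 577 RPKM, the class II chains H2-Ab1 (1076), H2-Eb1 (1054) and H2-Aa (833 RPKM), the class I chains H2-K1 (1040.3) and H2-D1 (948 RPKM), Eef2, Actb and the ribosomal protein genes Rplp1, Rps15, Rpl4, Rplp0, Rpl8 and Rpl32 and the unnamed locus Gm2000. Exon length was taken as the union of all annotated exons, which lowers the RPKM of genes with many alternative exons, and reads that match several places were not counted, which lowers genes with many processed pseudogenes. Gapdh, a glycolytic gene with many such copies, stood at only 110.2, 179, 213 and 159.5 CPM, and its level is uncertain for that reason.

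The measured antigen receptor genes were all expressed. Ighm, the constant region of IgM, stood at 4554, 7143, 7953 and 5992 CPM, the kappa constant gene Igkc at 2839, 3716, 3841 and 2509 CPM and the lambda constant gene Iglc2 at 329.9, 378, 439.8 and 367 CPM. Replicate 3 was the highest sample for all 5 measured members of the receptor complex, and replicate 1 or 4 the lowest. Per kilobase, Igkc reached 6065 ± 1229 and Ighm 3399 ± 783 RPKM, against 742 ± 120.4 for Cd79a and 776 ± 83.1 for Cd79b. The summed level of the complex was 9716, 13364, 14775 and 10973 CPM, and no member lay at least 2-fold from the median of the other 3 samples in any replicate. Ighd, Iglc1 and Iglc3 were not analysed here, so the IgD part of the receptor is not covered.

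Most counts of the 6 heavy-chain constant genes used here were IgM. The switched genes Ighg1, Ighg2b, Ighg2c and Ighg3, with the few counts of the IgE gene Ighe, together held 3.32% of heavy-chain constant counts in replicate 1 (95% exact binomial interval 3.25 to 3.39%), 11.9% in replicate 2 (11.8 to 12.0%), 3.18% in replicate 3 (3.12 to 3.23%) and 4.72% in replicate 4 (4.64 to 4.80%). These intervals cover counting error only. The IgA gene Igha and the IgD gene Ighd were not among the 6 genes, so the shares apply to those 6 alone. Replicate 2 stood above the other 3, whose shares lay close together. Ighg2c, the IgG2 form of the C57BL/6 strain, made up most of the difference at 69.98, 515, 92.2 and 119 CPM, with Ighg2b at 47.9, 242, 114 and 92.2 CPM, Ighg3 at 16.2, 115, 30.8 and 38.8 CPM and Ighg1 at 22.4, 94.7, 23.9 and 46.8 CPM. All 4 IgG genes were highest in replicate 2. A secreting cell holds far more immunoglobulin message than a resting one, so a share of counts is not a share of cells.

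**Figure D2:**
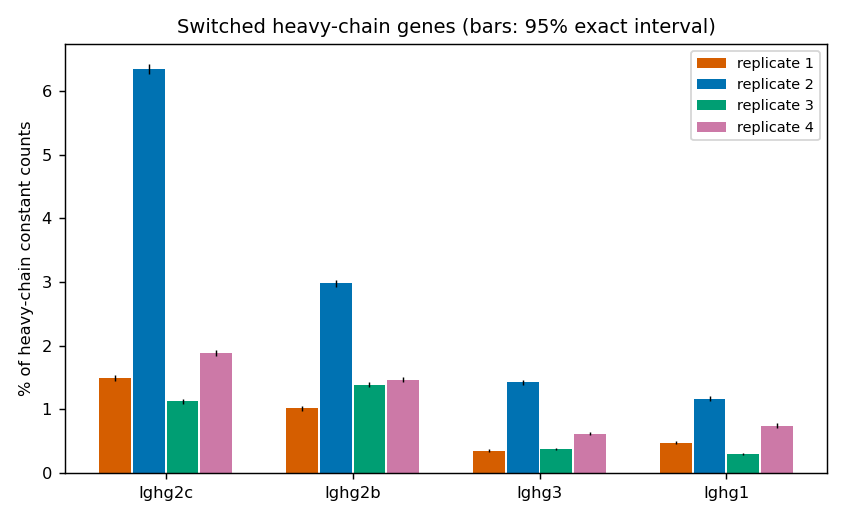
Share of heavy-chain constant-region counts held by each IgG gene in the 4 normal spleen samples, in percent, with 95% exact binomial intervals for counting error. The counts are those of 6 genes, without Igha and Ighd. Replicate 2 has the tallest bar for every gene, reaching 6.35% for Ighg2c against 1.1 to 1.9% in the other 3 samples.

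Light chains were mostly kappa. Lambda made up 10.4, 9.24, 10.3 and 12.8% of light-chain constant counts in replicates 1 to 4, by a single lambda gene, so the lambda share is a lower limit. Variable genes were spread over many segments. The table held 27 heavy V genes, 19 of them at a mean of 1 CPM or more, and 59 kappa V genes, 44 of them at that level. The largest heavy V gene held 17.2 to 19.9% of heavy V counts and was a different gene in each sample, Ighv6-3 in replicate 1, Ighv3-6 in replicate 2, Ighv6-6 in replicate 3 and Ighv1-18 in replicate 4. The largest kappa V gene held 6.51% of kappa V counts in replicate 1 (Igkv2-137), 11.8% in replicate 2 (Igkv5-39), 6.36% in replicate 3 (Igkv5-48) and 9.56% in replicate 4 (Igkv11-106, annotated as a pseudogene). V genes are near-identical within families and many are missing from this list, so the shares apply to the listed genes alone.

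The coreceptor lowers the threshold of the receptor. Its member Cd81, a tetraspanin, stood at 105, 127, 119.9 and 110.0 CPM, with little difference between the samples. Cr2 reached 74.3 ± 11.6 RPKM. The short gene Ifitm3 was lower in replicate 1 at 16.1, 55.6, 46 and 54.8 CPM.

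Kinases and adaptors that pass on the receptor signal were all expressed. Syk, the kinase that docks on the phosphorylated Cd79 tails, stood at 1726, 1109, 1384 and 1240.5 CPM and 146 ± 28.4 RPKM. The Src-family kinases, which act before it, were led per kilobase by Blk at 155 ± 16.9 RPKM, with Lyn at 83.7 ± 2.59 and Fyn at 46.6 ± 1.82 RPKM. Blk and Syk differed by less than their spread. Btk, the Tec-family kinase that activates phospholipase C, stood at 205, 143, 179 and 148 CPM. Plcg2, that phospholipase, stood at 460.3, 419.7, 436 and 416 CPM and its adaptor Blnk at 233, 218, 262 and 241 CPM. The adaptors Bank1 and Pik3ap1 stood at 338 to 391 and 281 to 346 CPM, and the catalytic subunit Pik3cd of phosphoinositide 3-kinase at 560.3 to 669.9 CPM. Replicate 1 was the highest sample for 13 of the 17, and none lay 2-fold from the others in any sample. The median member log2 ratio in replicate 1 was 0.17, against 0.09 over all genes. Long genes were higher in that sample in general, as given below, and the part of length in this count was not tested. The remaining members, Vav1, Vav2, Grb2, Dapp1, Shc1 and Nck1, lay between 9.0 (Nck1) and 88.2 RPKM (Grb2).

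Downstream, the route to NF-kB and calcium was expressed in all 15 members. Prkcb, the protein kinase C isoform of B cells, stood at 437, 281, 305 and 312 CPM. Bcl10 and Malt1, of the scaffold complex it acts on, stood at 78.5 to 83.8 and 225 to 309 CPM. Among the channels that release calcium from stores, Itpr3 was the highest at 62.3 ± 12.4 RPKM, followed by Itpr2 (16.1) and Itpr1 (13.4 RPKM). Stim1 and Orai1, which carry store-operated calcium entry, lay at 10.9 ± 2.29 and 12.8 ± 1.41 RPKM. Nfatc1, a factor activated by calcium through calcineurin, reached 46.3 ± 4.74 RPKM, with Nfatc3 at 26.5 and Nfatc2 at 7.19 RPKM. The calcineurin subunits Ppp3ca and Ppp3cb lay at 13.2 and 13.4 RPKM, and Rasgrp3, which activates Ras, at 24.1 RPKM.

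Inhibitory receptors and phosphatases had a median member of 56.8 RPKM, against 54.2 RPKM for the kinases and adaptors. Ptpn6, the phosphatase SHP-1 that inhibitory receptors recruit, was the highest of 17 per kilobase at 367 ± 21.7 RPKM. Cd22, a sialic-acid-binding receptor that recruits it, stood at 1366, 1143, 1399.9 and 1186 CPM, and Siglecg, a relative, at 656, 539, 661 and 618 CPM. Csk, the kinase that holds Src-family kinases inactive, stood at 631, 449.9, 478 and 502 CPM. The Fc receptor Fcgr2b, which dampens B cells bound by immune complexes, stood at 124, 130.2, 158 and 140.1 CPM, and Inpp5d, the phosphatase SHIP-1 it recruits, stood at 476, 386, 437 and 429 CPM. No inhibitory member lay 2-fold apart in any sample. Cd72 (103), Fcrla (147), Dok3 (75.9) and Fcrl1 (66.5 RPKM) were intermediate, and Lair1 was the lowest at 3.75 RPKM. The rest (Pag1, Ptpn22, Pirb, Cd5, Fcrl5 and Ceacam1) lay between 9.89 and 25.1 RPKM.

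Of 16 pan-B surface genes all were expressed. Cd74, counted here as a surface and presentation gene, stood at 7187, 7354, 9107 and 8874 CPM. Next per kilobase came Ly6d, a marker of committed B lineage cells, at 480.3 ± 102 RPKM. Cd52, a small glycoprotein anchored in the membrane, stood at 169, 394, 426 and 500.0 CPM, and Cd37, a tetraspanin, at 1031, 863, 999 and 958 CPM. Cd52 was 2.53-fold lower in replicate 1 than the median of the others, and its exons span only 1.19 kb. Cd53 (249), Cd24a (175), Cd2 (129) and Cd48 (107 RPKM) were also abundant. Cd38, Cd44, Cd27, Cd47 and Cd200 lay between 13.8 and 39.8 RPKM. The activation marker Cd69, taken up with the immediate-early genes below, differed most among the 16.

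Tnfrsf13c, the BAFF receptor, stood at 349, 272, 339.9 and 234 CPM and Tnfrsf13b, the receptor TACI, at 185, 161, 203 and 148 CPM. Tnfrsf17, the receptor of plasma cells known as BCMA, was low at 0.324, 2.04, 1.03 and 0.623 CPM. Per kilobase the 3 receptors reached 146, 61.5 and 1.23 RPKM. Btla, an inhibitory receptor of resting lymphocytes, reached 124 ± 14.2 RPKM and Icosl, the ligand of the T cell receptor ICOS, 54.9 ± 6.29 RPKM. Cd40, through which T cells activate B cells, stood at 95.9, 72.5, 87.8 and 75.5 CPM. The costimulatory ligands Cd86 and Cd80, which activated B cells carry, reached 13.5 and 1.96 RPKM. Cd83 stood at 214, 202, 209 and 332 CPM and Cd274, which encodes PD-L1, at 90.2, 79.7, 77.2 and 128 CPM, both highest in replicate 4. 4 SLAM family genes spanned 6.91 (Slamf1) to 70.7 RPKM (Ly9), with Slamf6 and Slamf7 between. Tnfrsf1b, Tnfrsf14, Fas and Pdcd1lg2 completed the list at 32.3, 17, 6.49 and 4.50 RPKM.

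Homing receptors of circulating lymphocytes were high. Cxcr4, the receptor for Cxcl12, led the 22 per kilobase at 291 ± 97.8 RPKM and was the highest of them in replicates 1, 2 and 3. Ccr7, which draws cells to the T zone, reached 235 ± 156 RPKM, a mean raised by replicate 4, where it was the highest of the 22; in replicates 1 and 3 it lay below Itgb2 and Itgb7. Cxcr5 stood at 305, 345, 467 and 353 CPM and S1pr1 at 403, 449.8, 425 and 601 CPM. Replicate 3 was the highest sample for Cxcr5 and replicate 4 for S1pr1. The integrin chains Itgb2, Itgb7 and Itgal, which bind vascular ligands, reached 169, 157 and 98 RPKM, and Itga4 and Itgb1 45.9 and 40.4 RPKM. Gpr183, the oxysterol receptor that places B cells at the outer follicle, stood at 84.6, 94.2, 101 and 214 CPM, and P2ry10, a lysophospholipid receptor, at 162, 145, 142 and 294 CPM. Both were highest in replicate 4. S1pr2, the receptor that confines germinal centre cells, was low at 6.42 to 12 CPM, and Cxcr3 lay at 19.3 to 30.8 CPM. Among the rest, Gpr18, Cnr2, Ccr6, S1pr4, S1pr3, Gpr174, Icam1 and Icam2 lay between 10.3 and 81.3 RPKM.

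Genes of the 2 mature subsets of the spleen were expressed in full. All 11 measured follicular genes were expressed, with a summed level of 4808, 4033, 4535 and 5274 CPM. Fcer2a, the low-affinity IgE receptor CD23 that marks follicular cells, stood at 484, 413, 491 and 433 CPM and 147 ± 12.4 RPKM. Its level varied little across the samples. All 12 marginal zone genes were expressed as well, summing to 2329, 2077, 2590.4 and 2105 CPM, and replicate 3 was the highest sample for 9 of them. Notch2 stood at 608, 413, 487 and 388 CPM and Dtx1, a gene that Notch signalling turns on, at 314, 279, 349 and 331 CPM. Cd1d1, which presents lipids and is high on marginal zone cells, stood at 61.9, 52.8, 63.8 and 52.2 CPM, Cd9 at 29.3, 43.9, 54.3 and 48.7 CPM and S1pr3, which holds marginal zone cells in place, at 37.4, 36.1, 62.8 and 47.9 CPM. Replicate 3 was highest for all 3. Cr2 reached 46.9 to 55.9% of the Fcer2a level per kilobase, again highest in replicate 3. Both lists share Cr2, and a bulk sum does not give the share of either subset. Asb2, Tm6sf1, Hes1, Cd36, Plac8 and Mzb1 made up the rest, from 10.3 (Hes1) to 214 RPKM (Plac8), and macrophages and platelets also express Cd36.

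Genes of other B cell stages had lower medians. The median member stood at 110.3 RPKM in the follicular list, 22 in the marginal zone list, 18.1 in the B-1 list, 13.4 in the plasma cell list and 6.60 RPKM in the transitional list. Of 12 germinal centre genes, 11 reached 1 CPM, and the median member stood at 1.88 RPKM. Bcl6, the repressor that germinal centre cells need, stood at 124, 111, 109 and 119 CPM. Gcsam, Rgs13, Mybl1, Efnb1 and Nuggc lay at 0.908 to 2.42 RPKM, Neil1 at 14.2, and Gna13, which is expressed widely, at 32.3 RPKM. Mef2b had 0 counts in all 4 samples. Its locus overlaps the neighbouring gene Borcs8 in the annotation, and reads that fit both were not counted, so its level is uncertain. Plasma cell genes differed by kind. Jchain, which links IgM and IgA chains, stood at 239, 469, 491 and 263 CPM, and Xbp1, the factor of the secretory programme, at 111, 159, 142 and 125 CPM. Sdc1, the surface marker CD138, stood at 20.5, 19.3, 14.4 and 19.6 CPM and Prdm1, the factor Blimp-1, at 14.2, 17.8, 13.5 and 20.3 CPM. Jchain was higher in replicates 2 and 3 than in replicates 1 and 4, while Sdc1 and Prdm1 were both lowest in replicate 3. Derl3, Creb3l2 and Fkbp11, genes of the secretory route, lay at 6.87, 4.25 and 0.930 RPKM. Mzb1, which helps to fold immunoglobulin and is high in marginal zone and plasma cells, was 2.51-fold lower in replicate 1 at 61, 153, 156 and 122 CPM. The summed plasma cell list was lowest there as well (972, 1319, 1326 and 1332 CPM). That list holds Irf4, whose levels, given below, were highest in replicate 4 and raised its sum. The sum without Irf4 was not computed.

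Transitional and B-1 genes were present at moderate levels. Cd93, a marker of transitional cells, stood at 32.7, 30.5, 25.2 and 37.6 CPM and Vpreb3 at 19.9, 38.9, 39.7 and 39.9 CPM. Sox4 and Myb lay at 13.5 to 25.7 and 59 to 91.4 CPM, and Rag1 at 0.600 to 3.07 CPM. In the B-1 list all 10 members were expressed, but T cells share Cd5 (81 to 106 CPM) and Spn (297 to 394 CPM), and myeloid cells share Itgam (65.8 to 76.6 CPM), Anxa2 and S100a6. Bhlhe41, a factor needed by B-1 cells, stood at 29.2, 27.1, 23.5 and 32.7 CPM, and Zbtb32 at 7.76, 7.93, 12 and 8.31 CPM. Neither lay 2-fold apart in a sample, and Zbtb32 was highest in replicate 3.

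Transcription factors of the B lineage were expressed in 35 of 36 cases, with Mef2b the exception. Spib, an Ets factor active in B cells and plasmacytoid dendritic cells, was the highest per kilobase at 189 ± 6.62 RPKM. Pou2af1, the coactivator OBF-1, reached 168 ± 21.8 RPKM and Ets1, a factor of resting lymphocytes, 128 ± 20.4 RPKM. Ikzf1 and Ikzf3, the Ikaros and Aiolos zinc finger genes, reached 113 ± 4.04 and 66.3 ± 11.9 RPKM. Pax5, which holds B cells to their lineage, stood at 221, 141, 158 and 154 CPM and Ebf1, its partner, at 198, 138, 146 and 191 CPM. Per kilobase both lay below Spib, at 19 ± 4.02 and 17.2 ± 3.12 RPKM. Irf8, which with Spi1 sets the mature B cell programme, reached 79.6 ± 4.20 RPKM and Spi1 40.2 ± 4.10 RPKM. Stat6, which passes on interleukin 4, reached 85.9, Tcf3 59.4 and Elf1 42.6 RPKM. Foxo1, a factor of resting cells, stood at 306, 256, 256 and 326 CPM, and Bach2, which keeps B cells from becoming plasma cells, at 306, 143, 152 and 229 CPM. Bach2 was 2.01-fold higher in replicate 1 than the median of the others, and replicate 1 was the highest sample for 22 of the 36. The median member log2 ratio in replicate 1 was 0.20, against 0.09 over all genes, and the part of gene length was not tested. Myc, a transcription factor gene of cell growth, stood at 249, 242, 197 and 379.6 CPM, highest in replicate 4. Tcf4 (5.09), Zeb2 (3.94) and Ikzf2 (3.33 RPKM) were at the lower end, with Prdm1 (2.95 RPKM). Between these lay Bcl11a, Mef2c, Runx1, Runx3, Fli1, Aff3, Hhex, Etv6, Pou2f1 and Pou2f2, at 5.92 (Runx1) to 32 RPKM (Fli1).

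All 15 NF-kB genes were expressed. Nfkbia, the inhibitor that holds the dimers in the cytoplasm, was highest per kilobase at 129 ± 6.01 RPKM. Of the subunits, Nfkb2 (53.2) and Rela (46.4) stood above Nfkb1 (35), Relb (26.8) and Rel (10.5 RPKM). Tnfaip3, the A20 enzyme that ends the signal, stood at 176, 170.0, 102 and 726 CPM and was 4.27-fold higher in replicate 4. Nfkbid, Nfkbiz and Nfkbie lay at 126 to 242, 56.4 to 158 and 133 to 169 CPM, and Birc3, Map3k14, Traf2, Traf3 and Nfkbib at 16.3 (Traf2) to 43 RPKM (Birc3).

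The 17 quiescence genes had a median of 46 RPKM, against 7.25 RPKM for all expressed genes with a length. The list was chosen with earlier results of these data known, so this contrast does not set quiescence genes apart. Slfn2, which keeps lymphocytes at rest, reached 254 ± 37.4 RPKM, Btg1, which slows division, 236 ± 51.4 RPKM and Txnip, an inhibitor of glucose uptake, 193 ± 26.1 RPKM. Tsc22d3 stood at 668, 693, 554 and 876 CPM and Cdkn1b, the inhibitor p27, at 207, 173, 176 and 218 CPM. Btg2 (149), Pdcd4 (85.2) and Klf13 (46 RPKM) lay below these. Foxo3, Tob1, Rbl2, Foxp1, Klf3 and Cdkn2c were lower, at 5.18 to 28.3 RPKM. Klf2, which maintains resting circulating cells, stood at 278, 368, 264 and 733 CPM, and Klf6 at 214, 201, 108 and 615 CPM. Both were higher in replicate 4, by 2.64-fold and 3.05-fold.

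Among innate sensors and their partners, Unc93b1, which escorts nucleic-acid sensors to the endosome, led the 14 genes at 180.0 ± 14.1 RPKM. Tlr9, the sensor of unmethylated DNA, stood at 144, 136, 166 and 136 CPM and Tlr7, the sensor of single-stranded RNA, at 69.1, 76.9, 89.8 and 80.7 CPM. Cd180, a relative of Tlr4 on B cells, stood at 214, 233, 266 and 261 CPM with its partner Ly86 at 146, 178, 212 and 143 CPM. Tlr9 and Tlr7 varied little and Ly86 was highest in replicate 3. Tlr1 stood at 110.3 to 137 CPM and Myd88, the shared adaptor, at 57.1 to 82.3 CPM. Tlr4 and its partner Ly96 lay at 3.20 and 3.78 RPKM, below the 41.8 RPKM of Tlr9, and Tlr2, Tlr6 and Tlr3 at 7.04, 5.33 and 2.36 RPKM. Cd14, a myeloid coreceptor, stood at 3.83, 10.9, 3.97 and 11.8 CPM and Irak4 at 36.5 to 43.4 CPM.

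All 21 cytokine receptor genes were expressed. The shared chain Il2rg led at 113 ± 10.9 RPKM, followed by Il10ra (82), Il21r (71.7), Ifngr1 (67.6) and Il4ra (61.5 RPKM), the last of these the receptor for the helper cytokine interleukin 4. Il9r stood at 79.4, 69.6, 136 and 68.8 CPM, with replicate 3 the highest. T and NK cells, whose markers were also present, express Il2rb (53.1), Il7r (41.7) and Il2ra (3.28 RPKM). The remaining members, Il27ra, Tgfbr1, Tgfbr2, Il17ra, Ifnar1, Ifnar2, Ifngr2, Il10rb, Il6ra, Il6st, Il5ra and Il13ra1, lay between 2.90 (Il13ra1) and 47.7 RPKM (Tgfbr2).

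Class II presentation genes summed to 17810.1, 17733, 21852 and 19698 CPM. H2-Aa stood at 2775, 3007, 3879.9 and 2988 CPM and H2-Ab1 at 2605, 2528, 3200.2 and 2716 CPM. Replicate 3 was the highest sample for 10 of 14 members, H2-Aa, H2-Ab1, H2-Eb1 and Cd74 among them. H2-Ob and H2-Oa, whose product restrains peptide loading in B cells, reached 156 ± 20.3 and 142 ± 26.9 RPKM, against 80.1 ± 9.73, 76.9 ± 4.80 and 236 ± 20.9 RPKM for H2-DMa, H2-DMb1 and H2-DMb2, which load it. Ciita, the coactivator of all class II genes, stood at 417, 356, 439 and 343 CPM. The proteases Ctss and Lgmn and the reductase Ifi30, which prepare antigen, reached 304, 63.4 and 256 RPKM. H2-Eb2 was lower at 33.2 RPKM. In the class I list, H2-K1 stood at 2875, 3019, 3367 and 2965 CPM, H2-D1 at 2435, 2408, 2517 and 2424 CPM and the short gene B2m at 747, 1756, 1795 and 1646 CPM. B2m was 2.35-fold lower in replicate 1, while H2-K1 and H2-D1 were not. The transporter genes Tap1 and Tap2 reached 79.1 and 46.1 RPKM, and Nlrc5, which drives class I genes, 34.3 RPKM. H2-T23, Tapbp, Psmb8, Psmb10 and Erap1 lay at 15 (Erap1) to 133 RPKM (H2-T23). Psmb9 was not analysed here.

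Survival genes of the Bcl2 family were led by Mcl1. Mcl1, which B cells need at all stages, stood at 907, 719, 783 and 712 CPM and 228 ± 26.4 RPKM. Bcl2 stood at 133, 129, 152 and 142 CPM and 15.2 ± 1.120 RPKM, and Bcl2l1, which encodes Bcl-xL, at 17, 26.5, 18.7 and 15.9 CPM. Bcl2 varied little across the samples. Among the killers and their triggers, Bak1 and Bax reached 34.1 and 33.6 RPKM, Bid 17.6, Bmf 12.3 and Bcl2l11, the gene of Bim, 10.1 RPKM. Pmaip1, the gene of Noxa, stood at 56.4, 47.5, 26.9 and 119 CPM, highest in replicate 4. Bik lay at 0.286 to 0.762 CPM and Hrk had 0 counts in all 4 samples, so 13 of 15 members reached 1 CPM. Bcl2a1b is 1 of several near-identical copies, and its level of 13.7 to 18.3 CPM is uncertain. Bad, Bbc3 and Bcl2l2 lay at 2.93 to 5.58 RPKM.

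Interferon-stimulated genes were expressed in 17 of 17 cases but unevenly. Irf1, a factor that interferons induce, stood at 259, 212, 228 and 207 CPM. Irf9 and Stat2 lay at 163 to 199 and 125 to 164 CPM, and the antiviral genes Rsad2 and Ifit1 stood at 11.9, 41, 17.5 and 17.2 and 17.9, 17.4, 26 and 16.4 CPM. Rsad2 was 2.38-fold higher in replicate 2, and no other member was past 2-fold in any sample.

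Metabolic genes were expressed almost throughout. All 21 glycolysis and lactate genes reached 1 CPM, led by Aldoa at 106 ± 10.4 RPKM, Ldha at 88.6 ± 8.64 RPKM and Pkm at 79 ± 4.42 RPKM. Among hexokinases, the first enzymes of the pathway, Hk1 stood at 95.5 to 143 CPM and Hk2, the isoform of activated cells, at 23.1 to 26.3 CPM. Gpi1 stood at 349 to 386 CPM, and Slc16a3, a lactate exporter, and Aldoc were the lowest per kilobase at 1.59 and 1.87 RPKM. The tricarboxylic acid cycle list of 21 varied by 3.22% (CV of the sums), with Mdh1, Sdha, Ogdh and Cs at 83.7, 55.3, 48.3 and 36.5 RPKM and Pcx, which refills the cycle, lowest at 1.02 RPKM.

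In fatty acid oxidation, Cpt1a, the gate of mitochondrial import, stood at 149.9, 155, 95.9 and 142 CPM and Hadha at 154 to 199.9 CPM, while the muscle and brain isoforms Cpt1b and Cpt1c lay at 0.439 to 0.805 and 0 to 0.236 CPM. Scd1, a desaturase, led lipid synthesis at 138 ± 13.1 RPKM, with Acly (55), Srebf2 (51) and Fasn (17.9 RPKM) below it and Idi1 and Fdft1 at 3.43 and 3.09 RPKM. Of the genes of serine and folate metabolism, Mat2a (41.1), Shmt2 (26.6), Mthfd1 (13.6) and Mthfd1l (13 RPKM) were present and Gldc was at or below 0.0462 CPM. The sums of that list hardly varied, from 629 to 643 CPM. Slc1a5, a glutamine carrier, led amino acid uptake at 81.5 ± 3.23 RPKM, with Gls2 and Slc7a11 at 0 to 0.275 and 0.724 to 1.92 CPM. In the pentose phosphate and antioxidant list Gpx1, Taldo1, Cat and Tkt reached 184, 87.6, 61.8 and 36 RPKM. Prdx2, an antioxidant gene that red cells hold in quantity, stood at 34, 132, 61.6 and 56 CPM, highest in replicate 2. In nucleotide synthesis, Paics, Gart, Cad and Atic reached 35.5, 18.2, 14 and 12.7 RPKM. In growth control, Ddit4, which restrains mTORC1 under stress, stood at 113, 120.1, 151 and 44.6 CPM. It was 2.69-fold lower in replicate 4 than the median of the others.

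The 17 replication genes summed to 929.7, 1011, 827 and 829.9 CPM, with the helicase gene Mcm6 at 105 to 131 CPM and the clamp gene Pcna at 87 to 114 CPM. The 17 mitosis genes summed to 531, 1015, 494 and 556 CPM, and each of the 17 was highest in replicate 2. Mki67, present in cycling cells of any type, stood at 177, 446, 168 and 206 CPM, Cdk1 at 12, 33.2, 16.6 and 13.3 CPM and Ube2c, which drives exit from mitosis, at 4.08, 31.1, 13.3 and 13.2 CPM. Replicate 2 also held the most erythroid message, as given below, and the part of those cells in the mitosis genes was not tested.

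Messages of other cells were present in all samples, and fewer cells of a type and less RNA per cell cannot be told apart in bulk RNA. All 18 T cell genes were expressed, with a summed level of 2991, 2877, 2905 and 3094 CPM and a CV of 3.29%, the lowest of the other-cell lists. Lck, the kinase beside the T cell receptor, stood at 433, 354, 354 and 342 CPM, Thy1 at 339.7, 279, 349.6 and 303 CPM and Tcf7 at 354, 394, 369.8 and 452 CPM. The receptor chain Cd3e stood at 127, 75.8, 79.5 and 96.9 CPM, and Cd4 and Cd8a at 229, 181, 186 and 203 and 151, 167, 147 and 166 CPM. Per kilobase, Cd3d reached 6.93 to 9.04% and Cd3e 2.22 to 5.33% of the Cd79a level, and Cd3g 4.13 to 5.95% of the Cd79b level. Single pairs do not give the scale of the whole list. Its median member stood at 51.2, 45.9, 48.1 and 51.2 RPKM in replicates 1 to 4. The median of a set of B cell markers stood at 182, 153, 178 and 128 RPKM. Of the T cell list, B-1 cells also express Cd5.

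NK and cytotoxic genes summed to 297, 499, 421 and 347 CPM and were highest in replicate 2 for 11 of 12. Ccl5, a chemokine of NK and memory T cells, stood at 53, 127, 116 and 109 CPM and Ncr1, which marks NK cells, at 12.4, 24.6, 17 and 10.9 CPM. Plasmacytoid dendritic cells carry B220 themselves, and Siglech, their marker, stood at 39.3, 73.5, 62.6 and 67.9 CPM, from 1.99 to 2.91% of Cd79a per kilobase. Conventional dendritic genes summed to 551, 621, 487 and 1178 CPM, a list that holds Ccr7, which B cells share and whose levels are given below. Xcr1 and Clec9a, which dendritic cells hold almost alone, stood at 5.85, 15, 11.4 and 10.9 and 12.7, 16.2, 13.2 and 14.8 CPM. Megakaryocyte genes (Pf4 0.991 to 5.11 CPM) were low, and eosinophil, basophil and mast cell genes (Epx 0.0462 to 0.629 CPM, Fcer1a 0.255 to 0.689 CPM) and stromal and endothelial genes (Lyve1 0.0191 to 0.118 CPM, Ccl19 0 to 0.0589 CPM) had these members below 1 CPM in every sample. Pecam1 at 229.9 to 276 CPM and Itgb3 at 63 to 83.1 CPM, which other blood cells also express, held most of those sums, of 272 to 307 CPM and 109.5 to 118 CPM. Vwf and Cdh5, endothelial genes, lay at 7.30 to 10.8 and 5.85 to 8.60 CPM.

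**Figure D3:**
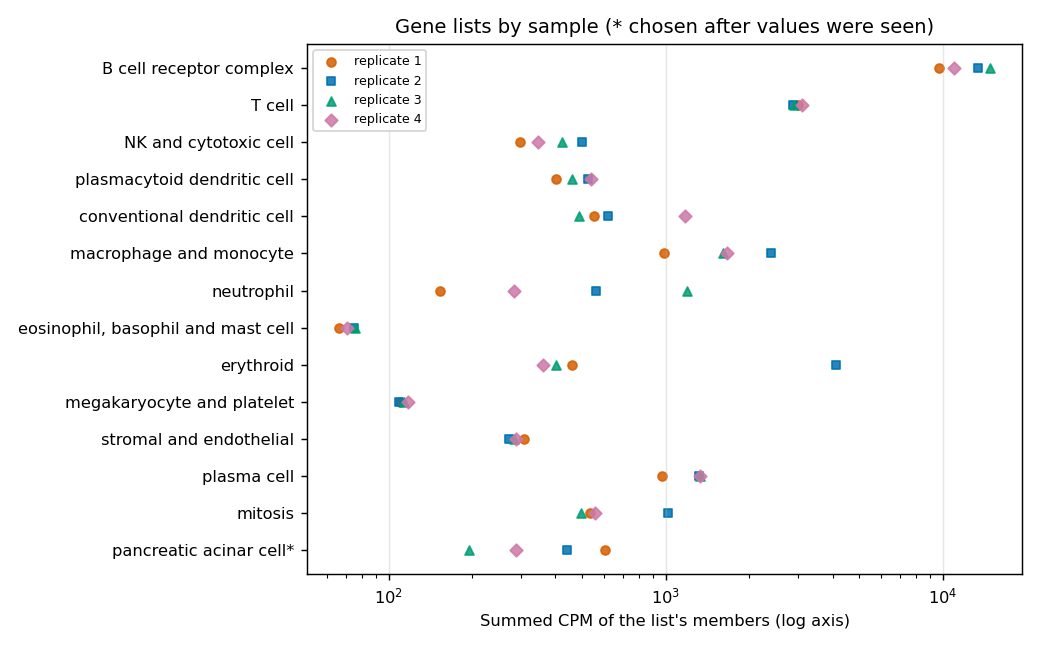
Summed CPM, on a log axis, of the members of gene lists for other cell types, plasma cells and mitosis in each of the 4 samples, with the antigen receptor complex for scale. The T cell sums coincide at 2877 to 3094 CPM, replicate 2 stands far to the right for erythroid genes at 4116 CPM, and the neutrophil sums spread from 153 to 1196 CPM.

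Replicate 2 held the most message of red cell precursors and macrophages. In that sample 212 of 11149 genes, 1.9%, were at least 2-fold above the median of the other 3, with at least 5 CPM, and 2 were as far below (0.0179%). Of 13 erythroid genes tested, 12 were past that fold, and all 13 were highest there. Klf1, Epor and Ermap were among the genes that reached 5 CPM in replicate 2 alone and so entered the count through the sample in which they were high. The beta-globin gene Hbb-bs stood at 170.4, 1611, 143 and 100.4 CPM and the alpha-globin gene Hba-a1 at 73.6, 1047, 90.6 and 92.4 CPM. Slc4a1, the anion exchanger band 3, stood at 29.4, 470.3, 21.7 and 17.5 CPM and Alas2, the first enzyme of erythroid haem synthesis, at 14.5, 119, 8.09 and 5.59 CPM. Each of these genes was highest in replicate 2, which is a single sample. Klf1, the erythroid master factor, stood at 0.839, 18, 1.18 and 1.15 CPM. Among the genes furthest above were Rhd, Cldn13, Btnl10, Apol11b and Ccdc92b, of which Rhd, a blood group antigen gene, stood at 1.85, 38.5, 1.72 and 1.45 CPM. The erythroid sum was 458, 4116, 403 and 360.1 CPM, and its mean was 1334 CPM with replicate 2 and 407 without it. Hba-a1 and Hba-a2 are near-identical and share reads, so their separate levels are uncertain.

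Macrophage and monocyte genes were highest in replicate 2 for 18 of 19, with sums of 989, 2388, 1609 and 1661 CPM, and 5 of the 19 were at least 2-fold above the others. C1qa, C1qb and C1qc, complement genes of tissue macrophages, stood at 21.6, 73.8, 33.2 and 44.1, 33.4, 112, 50.3 and 64.4 and 19.7, 88.8, 48.5 and 51.9 CPM. Vcam1, which red pulp macrophages express, stood at 100.1, 271, 127 and 137 CPM and Spic, the factor of those iron-recycling cells, at 16.1, 37.9, 20.7 and 22.7 CPM. Hmox1, which breaks down haem, stood at 53.9, 203, 168 and 148 CPM and Lyz2, the lysozyme gene, at 299.8, 743, 633 and 575 CPM. Replicate 1 was the lowest sample for 15 of the 19. The switched immunoglobulin genes and the mitosis genes given above were highest in the same sample. The B cell receptor complex was not lower there than in replicates 1 and 4.

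Replicate 3 held the most neutrophil granule message. There 51 of 11043 genes, 0.462%, were at least 2-fold higher than the median of the others and 53, 0.48%, at least 2-fold lower. Of the neutrophil genes, 9 were past the fold and 12 of 14 were highest in it, with sums of 153, 561, 1196 and 284 CPM. S100a8 and S100a9, the calprotectin subunits, stood at 18.3, 96.5, 207 and 37.6 and 24.5, 117, 259 and 59.96 CPM. Ngp and Camp, proteins of granules, stood at 16.2, 104, 284 and 35 and 4.69, 28.3, 57.8 and 8.73 CPM, Ltf, lactoferrin, at 14.7, 58.5, 147 and 23.7 CPM and Lcn2, lipocalin, at 5.11, 36.5, 102 and 13.3 CPM. The order was replicate 3, 2, 4 and 1 for each of these. Elane and Mpo, made by granulocyte precursors, stood at 0.572, 5.69, 8.01 and 1.11 and 3.87, 19.8, 28.2 and 6.58 CPM, and Fcnb and Itgb2l were also among the genes furthest above. The receptor genes of mature blood neutrophils did not follow. Cxcr2, which guides them, stood at 8.20, 11.8, 10.6 and 12.3 CPM and Csf3r, the growth factor receptor, at 35.2, 48.4, 34.5 and 55.3 CPM, while the surface marker gene Ly6g was low but highest in replicate 3 at 0.381, 0.550, 1.70 and 0.0924 CPM. Slc15a2, a peptide transporter, was at 9.76, 23.3, 0.933 and 21.4 CPM, 22.9-fold lower in replicate 3. The B cell receptor complex, class II and marginal zone lists were also highest in this sample, and the part of the neutrophil message in that was not tested.

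Replicate 1 differed by transcript length and by the mitochondrial genome. In it 684 of 11034 genes, 6.2%, were at least 2-fold lower than the median of the others, and 37, 0.335%, at least 2-fold higher. The genes lower by that rule had a median exon length of 0.744 kb, against 4.38 kb for all genes with a length, and 363 were processed pseudogenes and 190 protein-coding. Among nuclear protein-coding genes, those under 1 kb stood at a median log2 ratio of -0.60 to the other samples, those of 1 to 2 kb at -0.21, of 2 to 4 kb at 0.02, of 4 to 8 kb at 0.18 and of 8 kb and over at 0.30. The ratio climbed with each step of length in replicate 1, and over all genes its median was 0.09.

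**Figure D4:**
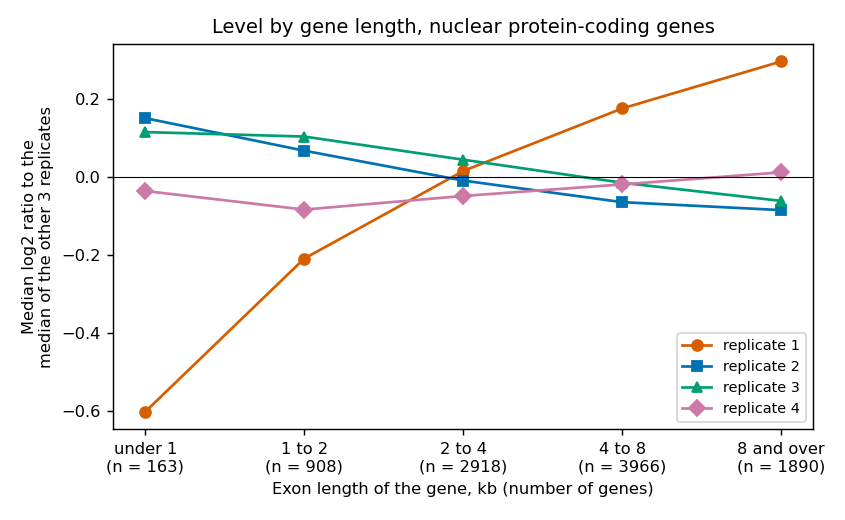
Median log2 ratio of each replicate to the median of the other 3, for nuclear protein-coding genes grouped by exon length in kb (number of genes under each group). Replicate 1 runs from -0.60 below 1 kb to 0.30 at 8 kb and over, while the other 3 replicates stay between -0.08 and 0.15.

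All 12 mitochondrially encoded genes tested were at least 2-fold lower in replicate 1. The complex IV gene mt-Co1 stood at 3061, 19134, 14831 and 14431 CPM and mt-Cytb, of complex III, at 827, 6613, 6069.9 and 5219 CPM. The ATP synthase genes mt-Atp6 and mt-Atp8 stood at 348, 5900.1, 4746 and 4564 and 58.6, 1247, 939.8 and 1009.8 CPM and the complex I gene mt-Nd3 at 29.9, 531, 448 and 369.8 CPM. Replicate 1 was the lowest sample for each of these, 4.85-fold below the median of the others for mt-Co1 and 15-fold for mt-Nd3. The list summed to 7027, 60776, 50193 and 47649.7 CPM, a mean of 41412 CPM with replicate 1 and 53038 without it. Nuclear genes of the respiratory chain differed less. Their sums were 2755, 3065, 3059 and 2838 CPM, lowest in replicate 1, which was the lowest sample for 13 of 24 members and the highest for 4, with a median member log2 ratio of -0.14. Of the 24, 2 were at least 2-fold lower (6.2% over all genes), the short Cox8a at 47.3, 102, 106 and 112 CPM and Ndufa1 at 6.90, 19.2, 17 and 12.7 CPM. Atp5b, of ATP synthase, stood at 582, 616, 619 and 575 CPM. The longer gene Ndufs1, of complex I, stood at 99.7, 64, 65.2 and 69.8 CPM, highest in replicate 1.

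Ribosomal protein messages, most of which are short, were lower in replicate 1 as well. Of 21 in the list, 5 were at least 2-fold lower, with sums of 16145, 22711, 24706 and 20139.8 CPM. Of 88 protein-coding genes with a ribosomal protein symbol and at least 5 CPM, 15 were. The share over all genes was 6.2%. Among nuclear protein-coding genes it was 28.8% under 1 kb and 7.6% at 1 to 2 kb, so these counts do not set ribosomal protein genes apart from other short genes. Rps19 stood at 423, 1356, 2086 and 1419.8 CPM and Rplp1 at 476, 1167, 1447 and 1165 CPM. Rpl4 stood at 2883, 2773, 2552 and 2313 CPM and did not follow. Translation factor genes were highest in replicate 1 for 12 of 15, with Eif3a at 795, 421, 408 and 436 CPM. Their median log2 ratio in that sample was 0.26. Over all genes it was 0.09, and among nuclear protein-coding genes 0.18 at 4 to 8 kb and 0.30 at 8 kb and over. The part of length in this count was not tested. Among the genes furthest above were short non-coding RNAs that lack a poly-A tail, Snord118 at 6.01, 0.393, 0.750 and 0.485 CPM, Snord55 at 14.5, 1.20, 3.79 and 2.84 CPM and Rnu3a at 14.6, 2.61, 1.74 and 2.17 CPM. Cd52, B2m, Mzb1 and Ifitm3, given above, were among the genes lower in replicate 1, with exon lengths of 1.19, 0.860, 1.22 and 0.678 kb, and the part of length in their levels was not tested.

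Replicate 4 held the most immediate-early message. These are genes that cells switch on within minutes of a stimulus, stress or tissue dissociation, before new protein is made. In replicate 4, 105 of 11052 genes, 0.95%, were at least 2-fold higher than the median of the others and 31, 0.28%, at least 2-fold lower. Of 16 immediate-early genes, 15 were highest there and 8 at least 2-fold higher. Their sums were 2782, 3333, 1775 and 7086 CPM, a mean of 3744 CPM with replicate 4 and 2624 without it. Replicate 3 was at the other end, lowest for 12 of 16 and at least 2-fold lower for 6 (0.48% over all genes in that sample).

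Fos, a component of the AP-1 dimer, stood at 394, 587, 165 and 1273 CPM, Fosb at 187, 245, 42.4 and 831 CPM and Junb at 284, 392, 188 and 1074 CPM. Jun stood at 363, 304, 131 and 596 CPM and Jund at 393, 271, 233 and 589.7 CPM. Replicate 4 was highest and replicate 3 lowest for all 5. Egr1, turned on by receptor and growth signals, stood at 84.3, 77.7, 50.2 and 177 CPM and Nr4a1, a reporter of antigen receptor signalling, at 152, 157, 90.04 and 506 CPM. Dusp1, a phosphatase that ends MAP kinase signals, stood at 137, 289.9, 92.5 and 587 CPM and Zfp36, which destroys cytokine messages, at 438, 647, 470.1 and 833 CPM. Atf3, a stress factor, ranged furthest of the 16 at 20.3, 13.5, 1.99 and 149 CPM, 11.1-fold higher in replicate 4. The heat-shock members varied less, Dnajb1 highest in replicate 4 at 147, 146, 137 and 157 CPM and Hspa1b highest in replicate 1 at 26.7, 14.9, 15.1 and 18.3 CPM, and Hspa1a and Hspa1b share near-identical sequence.

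**Figure D5:**
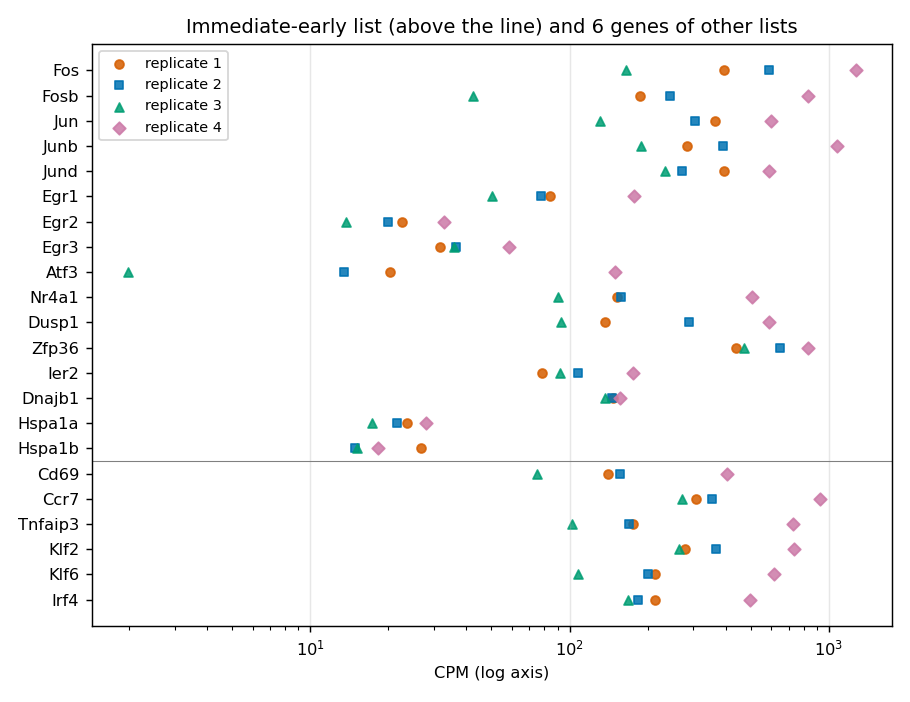
CPM, on a log axis, of the 16 immediate-early list genes (above the line) and 6 genes of other lists (below) in each of the 4 samples. Replicate 4 is the rightmost point for all but Hspa1b, and replicate 3 is the leftmost for most genes, as far as 1.99 CPM for Atf3.

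Genes of other lists were highest in replicate 4 as well. Ccr7 stood at 309, 353, 272 and 926 CPM, Cd69 at 141, 157, 75.1 and 406 CPM and Irf4, which rises in activated B cells, at 213, 183, 168 and 496 CPM. Each was lowest in replicate 3 and highest in replicate 4, by 3.0-fold, 2.88-fold and 2.71-fold over the median of the others. Ctla4, which T cells and B-1 cells express, stood at 14.6, 21.8, 11.3 and 69.9 CPM. Irs2, which carries insulin signals, stood at 30.3, 35.6, 29.8 and 188 CPM, Nr4a2 at 2.25, 3.95, 1.56 and 28 CPM and Plk2 at 14.5, 18.5, 4.22 and 103 CPM, and Trp53inp2 and Dusp18 were also among the genes furthest above. Of the 105 genes higher in replicate 4, replicate 3 was the lowest of the others for 61, replicate 1 for 42 and replicate 2 for 2. The T cell sum, 1.06 times the median of the others in replicate 4, was close to those of the other samples.

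Because these genes were high in the same sample, the 250 bases before the start of the listed genes were searched for the serum response element core known as the CArG box, for TGACGTCA, the site bound by CREB and ATF factors, and for TATAAA, on both strands, in promoter windows from RefSeq (GRCm38.p6). A window was found for 13 of 16 genes, 18 windows in all. The CArG box was in the windows of Egr2 and Zfp36, TGACGTCA in that of Dusp1 and TATAAA in that of Fos, against 1.467%, 1.546% and 12.37% of all 32851 windows. 1 window is shown for each motif, 5′ to 3′ on the strand of the gene, with the motif in capitals, because these are genes that were highest in replicate 4.
Zfp36: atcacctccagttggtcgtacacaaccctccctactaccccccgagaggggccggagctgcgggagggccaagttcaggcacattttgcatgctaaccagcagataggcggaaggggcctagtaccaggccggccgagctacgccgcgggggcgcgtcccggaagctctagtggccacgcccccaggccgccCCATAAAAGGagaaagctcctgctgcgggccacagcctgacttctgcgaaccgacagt
Dusp1: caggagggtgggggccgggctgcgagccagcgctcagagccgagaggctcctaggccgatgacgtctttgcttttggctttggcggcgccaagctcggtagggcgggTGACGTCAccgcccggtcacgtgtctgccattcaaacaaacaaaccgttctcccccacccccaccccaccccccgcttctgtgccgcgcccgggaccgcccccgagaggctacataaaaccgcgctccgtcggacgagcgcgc
Fos: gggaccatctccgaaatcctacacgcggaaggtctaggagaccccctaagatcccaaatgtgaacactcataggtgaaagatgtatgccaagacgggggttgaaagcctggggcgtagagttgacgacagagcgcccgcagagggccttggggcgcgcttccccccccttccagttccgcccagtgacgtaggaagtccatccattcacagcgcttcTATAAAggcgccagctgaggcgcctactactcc
The Zfp36 window lies at chr7:28379229-28379478 on the minus strand with its motif 58 bases before the start, the Dusp1 window at chr17:26508473-26508722 on the minus strand with its motif 143 bases before it, and the Fos window at chr12:85473640-85473889 on the plus strand with its motif 33 bases before it. A match describes letters in a window and is not shown to be a bound site in these cells. Only exact matches within 250 bases were sought, so a gene without a match may still carry a variant or more distant site.

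Against these differences most genes were steady. The median coefficient of variation of expressed genes was 15.7%. At 10 to 100 mean CPM it was 13.2%, and 8.40% without replicate 1, against 2.48% for counting error alone. Among genes of at least 50 CPM, the least variable was Anxa5, a phospholipid-binding annexin, at 52.2, 52.4, 52.8 and 52.4 CPM, with Gng2, Rae1, Ube2m, Smarcb1 and Cpne1 also under a coefficient of variation of 1.64% or at it. The most variable were Slc4a1, Hbb-bt, Hba-a1, Hbb-bs, Car2 and Ngp, at 111 to 166%, 5 of them erythroid genes and the other a neutrophil granule gene.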

How the data were processed

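The deposited table holds raw counts per Ensembl gene, 1 column per sample, and the labels record no scaling by the authors. Tools named in the submitters' processing notes are HTSeq, Picard 1.119 and BWA 0.7.5a, and the builds there are NCBIM37 and mm9; the notes assign no steps to them, and no source used here gives the strand setting. Libraries were made from poly-adenylated RNA and read on the Ion Proton, as the labels' protocols state. Besides its 37620 genes the table has 5 lines that name no gene, which stayed out of library sizes. Of reads listed, 14.3 to 17.9% matched more than 1 place, 16.5 to 20.2% lay outside genes, 7.23 to 13.2% were not aligned and 0.35 to 0.365% fitted more than 1 gene.

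Gene names and exon-union lengths came from GENCODE vM21 (another build, so no coordinates of it are used with the counts): 32897 identifiers matched a name and 4723, with 0.94% of counts, did not. CPM were computed over the 4 normal samples with TMM scaling in edgeR 4.0.16 (R 4.3.3), which also gave the biological coefficient of variation, and RPKM are CPM per kb. DESeq2 1.42.0 size factors were an alternative. The dispersion step was tested on simulated data. Samples were described without a test between groups. The 51 lists name 731 distinct genes; Ighd, Iglc1, Iglc3, Psmb9, Hmgcs1, Hbb-b1, Hbb-b2 and Ccl21a were not analysed here. Some list members are not reported here by name. Members and lists were chosen with earlier results of these data known, and 2 pancreatic lists after values were seen.

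Genes named are the markers; the 30 of highest RPKM; members of the receptor, surface, subset, transcription factor, handling, presentation and survival lists; of other lists the 4 highest and 2 lowest by CPM and defining markers near 0; per replicate the 6 furthest above and below the others; the 6 most and least variable; and immunoglobulin constant and top V genes. Not all that the rule names are printed, and some list members outside it, such as Hk1, Hk2, Ndufs1 and Prdx2, were named after their values were seen.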

Additional observations from a re-analysis of the deposited data

Results flagged for a closer look

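A value is listed here where the highest or lowest of the 4 samples lay further from its nearest neighbour than the critical value of Dixon's ratio allows on the log2 scale. Chance flags about 1 in 20 groups of values. Of 372 genes with values given, 36 were listed, of 53 list sums 5, and of 10 immunoglobulin shares 0. Some of the genes were named because 1 sample lay far from the others, and many vary together. The count of genes can therefore not be set against the chance rate.

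Replicate 1 was the sample that stood apart in most of them. It was lowest for the mitochondrially encoded sum (7027 CPM), with mt-Co1 at 3061, mt-Cytb at 827, mt-Atp6 at 348, mt-Atp8 at 58.6 and mt-Nd3 at 29.9 CPM, and for the plasma cell sum (972 CPM). It was also lowest for B2m (747), Cox8a (47.3), Ifitm3 (16.1), Vpreb3 (19.9), Tlr6 (13.4), Idi1 (8.50), Vwf (7.30) and Pf4 (0.991 CPM). It was highest for the sum of serine and folate genes (643 CPM) and for Eif3a (795), Itgal (754), Ikzf3 (735), Lck (433), Ogdh (310), Itpr2 (302), Stim1 (149), Mthfd1l (71.5) and Hk2 (26.3 CPM). The plasma cell list holds Irf4, which was highest in replicate 4, and the flag was not computed without it.

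Replicate 2 was highest for the erythroid sum (4116 CPM), with Hba-a1 at 1047, Slc4a1 at 470.3, Rhd at 38.5 and Klf1 at 18 CPM, for the mitosis sum (1015 CPM) and for Tmsb4x (4209.7 CPM). It was lowest for Il7r (169 CPM), and Ins2 was at 0.0982 CPM there and at 0 elsewhere.

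Replicate 3 was highest for Plac8 (421 CPM) and Zbtb32 (12.0 CPM). Replicate 4 was highest for Cd83 (332), Nfkbid (242), Mat2a (208) and Irs2 (188 CPM), and lowest for Txnip (483 CPM).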

How the results depend on the processing

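With DESeq2 size factors or total gene counts in place of TMM scaling, every one of 63 results compared kept its value within the spread between samples, or within 1.5 times for counts. The number of expressed genes ran from 10910 at 5 CPM to 14841 at 0.5 CPM and from 13474 to 13702 with a replicate left out. The biological coefficient of variation was 0.302 with no filter on low counts and ran from 0.20 without replicate 1 to 0.29 without replicate 3. With library sizes that leave out mitochondrially encoded genes, the mean sums moved past the spread between samples for the B-1 (924 CPM), tricarboxylic acid cycle (2246), serine and folate (662), T cell (3103) and megakaryocyte lists (118 CPM); the mitochondrially encoded list has no value there. The median over the 4 samples in place of the mean, an alternative chosen after seeing the data, gave 430.5 CPM for the erythroid sum against a mean of 1334 CPM, which replicate 2 raised; a median lies within 1 SD of its mean by construction, so this says nothing of stability.

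The counts of genes 2-fold apart depended on the threshold. At 3-fold they were 9 higher and 263 lower in replicate 1, 96 and 0 in replicate 2, 22 and 10 in replicate 3, and 42 and 4 in replicate 4. With at least 1 CPM on the higher side they were 103 and 1310, 459 and 41, 167 and 130, and 292 and 136. With a replicate left out they ran from 27 to 34 higher and 689 to 890 lower in replicate 1, 171 to 315 and 10 to 26 in replicate 2, 31 to 89 and 88 to 174 in replicate 3, and 91 to 214 and 36 to 121 in replicate 4. The genes lower in replicate 2 numbered 21 without replicate 1, 26 without replicate 3 and 10 without replicate 4, and those lower in replicate 3 numbered 174 without replicate 1, 88 without replicate 2 and 119 without replicate 4. The genes higher in replicate 3 numbered 31 without replicate 1 and 89 without replicate 2, those higher in replicate 4 numbered 214 without replicate 2, and those lower in replicate 4 numbered 121 without replicate 1 and 94 without replicate 3. No paired analysis was possible because there was a single group and its sample numbers mark no shared animal or day. Depth limited little: 3 counts corresponded to at most 0.0693 CPM. With 4 samples and no second group, no difference carries a p-value, and a bulk level does not separate the share of a cell type from its RNA content.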

Other observations

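Messages of the exocrine pancreas were found in all 4 samples. These genes were chosen after their values were seen, so their count supports nothing further. Of 20 digestive enzyme and secretory genes of the pancreatic acinar cell, 19 had a mean of at least 1 CPM. Pnlip, pancreatic lipase, stood at 124, 65.3, 30.7 and 43.2 CPM in replicates 1 to 4, Cela2a, an elastase, at 59.3, 37, 19.6 and 26.2 CPM and Ctrb1, chymotrypsinogen, at 57.6, 45.7, 18.4 and 28.4 CPM. Cpa1, a carboxypeptidase, stood at 38.1, 29.8, 13.9 and 24.2 CPM and Cel, a bile-salt-activated lipase, at 56.5, 47.2, 19.7 and 26.3 CPM. Replicate 1 was the highest sample for 15 of the 20 and replicate 3 the lowest for 19. In replicate 1, 8 of 16 tested were at least 2-fold higher (0.335% over all genes). In replicate 3, 12 of 15 tested were at least 2-fold lower (0.48% over all genes). The sums were 603, 439, 195 and 288 CPM, and the order of the samples was that of no other list of other cells. Of the islet hormone genes, Ins1 had 0 counts in all 4 samples, Ins2 reached 0.0982 CPM and Gcg 0.432 CPM. The trypsin genes Prss2, Try4 and Try5 belong to a family of near-identical copies, and their levels are uncertain. The source of these messages was not tested.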
